A study of Mus musculus with 1536 samples.

Results

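Serotonin neurons of the principal dorsal raphe (pDR) were examined that carried RNA for a GABA-synthesising enzyme but no read of Trh, the gene of the precursor of thyrotropin-releasing hormone. The members were the pDR cells with at least 1 read of Gad1 or Gad2, with Slc17a8 below 10 CPM (reads of a gene scaled to a fixed total of reads on genes in every cell) and with Trh at 0. There were 57 such cells among the 290 pDR cells of the deposited table, which holds 999 cells in all. The mice were Sert-Cre;Ai14 animals (genotype label: Sert-tdTomato-Cre cross with Ai14) of the strain C57BL/6J, of both sexes and 40 to 45 days old, in which Cre driven by the serotonin transporter gene switches on the red fluorescent protein tdTomato. Since the reporter is switched on for good, it also marks cells that used the Sert driver earlier in life, and the serotonin identity of the members was therefore checked below. Several brains were used for the dissection labelled Principal DR, single tdTomato-positive cells were sorted into plates, and each cell was made into 1 full-length Smart-seq2 library without molecular identifiers. A second dissection, labelled All DR, covered the whole dorsal raphe and, by the study's methods, the median raphe, from mice of the same genotype, strain and age.

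Gad1 and Gad2 encode the 2 forms of glutamate decarboxylase, which make GABA from glutamate, and Slc32a1 encodes the transporter (Vgat) that loads GABA into synaptic vesicles. Slc17a8 encodes the vesicular glutamate transporter Vglut3, and serotonin neurons that carry it are known from the ventral part of the dorsal raphe. Many Gad-positive serotonin neurons of the pDR also carry Trh, and the members were the ones that did not. They were described against the other 233 pDR cells and, more closely, against the 89 pDR cells with a Gad read and Trh of at least 10 CPM, called Gad Trh cells here, which are among those 233.

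The labels name the plate of a cell but do not say which animal it came from. Each dissection was therefore treated as 1 sample, no p-value was computed, and the spread given is that between the 5 plates (SER12, SER13, SER25, SER39 and SER40). The contrast of a gene was taken within each plate, by adding 1 to the mean CPM of each set of cells and taking the log2 ratio, and then averaged over plates with equal weight. A gene was called higher or lower when its contrast was at least 1 in size and had the same sign on every plate. All intervals are exact 95% intervals (Clopper-Pearson) and hold counting error only, and for a gene with a read in 0 cells the upper limit is given as the share that 3 cells would make.

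Members made up 19.7% of the pDR cells (57 of 290, interval 15.2 to 24.7%) and 31.1% of the 183 pDR cells with a Gad read. They were 11 of 93 cells on plate SER12 (11.8%), 22 of 85 on SER13 (25.9%), 10 of 43 on SER25 (23.3%), 3 of 28 on SER39 (10.7%) and 11 of 41 on SER40 (26.8%). The shares on SER12 and SER39 were the lowest, and the interval of SER39 (2.27 to 28.2%) covered the shares of the other 4 plates. The remaining pDR cells were the 89 Gad Trh cells, 8 Gad cells with less Trh, 29 Gad cells with Slc17a8 and no Trh, 80 cells with Slc17a8 and no Gad read, and 27 with neither.

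Depth was alike in the sets taken as a whole. The number of reads on genes had a median of 702025 in the members (273669 to 2780443) and 771119 in the other pDR cells, and the number of detected genes a median of 9681 and 9787. Gad Trh cells had a median of 751914 reads. On SER39 the 3 members had a median of 775386 reads against 1577072 in the other cells of that plate and 1405039 in its Gad Trh cells. The medians on SER40 were 874139 in members, 945794 in the other cells and 1585964 in Gad Trh cells. Members and Gad Trh cells lay closer on SER12, SER13 and SER25. Cells with fewer than 7000 genes were 5 of the 57 members (8.77%, interval 2.91 to 19.3%) and 6 of the 233 others (2.58%, 0.951 to 5.52%). One of them was a SER39 member with 4070 genes. With so few members SER39 weighs as much as any other plate in a contrast, so contrasts without it are given beside the results that rest on it.

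The values that chose the members were as follows. Gad2 was read in 55 members at 9.66 to 435 CPM (median 68.3) and Gad1 in 23 members at 66.3 to 716 CPM (median 383). Both genes were read in 21 members, Gad1 alone in 2 and Gad2 alone in 34. No member rested on fewer than 10 Gad reads, and 1 had both genes under 10 CPM. Slc17a8 was read in 4 members, at up to 6.02 CPM. Just outside the limits lay 2 Gad cells with Slc17a8 at 13.6 and 15.4 CPM, and 7 Gad cells with little Slc17a8 and with Trh between 1.13 and 10.0 CPM. Gad1 (chromosome 2, 70553072 to 70602014) and Gad2 (chromosome 2, 22622205 to 22693874) are separate genes of the same chromosome (all coordinates GRCm38). Members with Gad1 were 5 of 11 on SER12, 14 of 22 on SER13, 1 of 10 on SER25, 1 of 3 on SER39 and 2 of 11 on SER40.

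**Figure D1:**
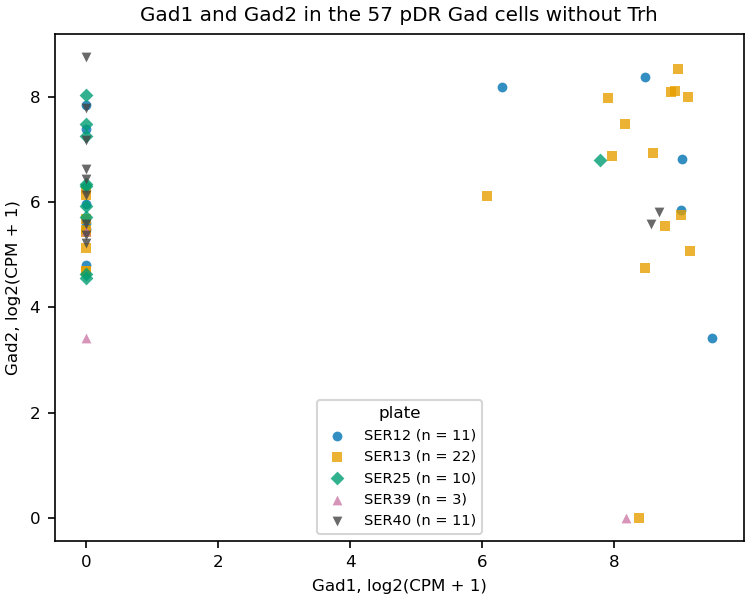
Gad1 (x axis) and Gad2 (y axis) in each of the 57 members, as log2(CPM + 1), with 1 point per cell and colour and marker giving the plate. The 34 members with Gad2 alone stand on the y axis at Gad1 of 0, and the 23 with Gad1 form a separate group at 66.3 CPM or more, 14 of them from plate SER13.

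Every member had the markers of serotonin neurons. Tph2, which encodes the rate-limiting enzyme of serotonin synthesis, was read in 57 of 57 members at 1803 to 15926 CPM, and its contrast against the other pDR cells was 0.05. Slc6a4, the serotonin transporter gene, was read in 57 of 57 (952 to 6178 CPM), and so were Slc18a2, the vesicular monoamine transporter gene, and Fev, which encodes a transcription factor of serotonin neurons (14.6 to 461 CPM). Of 16 serotonin genes tested, 0 were called in either direction against the other pDR cells or against Gad Trh cells. The vesicular GABA transporter gene Slc32a1 was read in 3 of 57 members (5.26%, interval 1.10 to 14.6%), at no more than 5.45 CPM, and in 1 of 233 other pDR cells (0.429%). None of 6 other GABA-handling genes tested, such as Abat, which encodes the enzyme that breaks GABA down (440 CPM in members and 425 CPM in the others), was called in either comparison.

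Markers of other cells were rare in the members. Of 8 microglial markers 7 were at 0 in all 57 members, including Cx3cr1 and P2ry12, and their summed level reached 4.56 CPM (23.1 CPM in the other pDR cells). Of 8 oligodendrocyte markers 4 were at 0 (Mog, Mag, Opalin and Ermn), and the sum had a median of 20.1 CPM in members (0 to 224) and 27.2 CPM in the others (0 to 2902). Astrocyte markers summed to a median of 0, with a highest value of 139 CPM in members and 260 CPM in the others, and 5 of 8 endothelial markers, Cldn5 among them, and 2 of 6 ependymal markers were at 0. Of 9 markers of other transmitter types 5 were at 0, namely Slc6a3, Slc6a2, Slc18a3, Slc17a6 and Slc17a7. Of 8 markers of GABA neurons of various regions, Tal2, Dlx1, Dlx2, Six3 and Otx2 were at 0, while Sox14 was read in many members and is described below. Mobp, a myelin gene, was the only marker of these glial and vascular lists called against the other pDR cells (contrast -1.29), and the ciliary gene Dynlrb2 was the only one called against Gad Trh cells (-1.19). The part of such RNA in the results below was not tested.

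Against all other pDR cells more genes were lower in the members than higher. Of 9993 genes tested 26 were called higher (0.26%) and 214 lower (2.14%), with a median contrast of -0.10 over all of them. Without SER39 the counts were 34 and 136, of which 13 and 104 were among the first calls, and with means of log2(CPM + 1) in place of means of CPM they were 39 and 129. The gate removed the cells with Slc17a8 and with Trh from the members, so any gene carried mainly by those cells had to differ, and the contrasts describe the set that the rule makes.

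Peli2, which encodes a Pellino ubiquitin ligase of immune receptor signalling (chromosome 14, 48120823 to 48281575), had the highest contrast among the well-expressed genes, 1.69, with plates from 1.26 to 2.22. Its mean was 22.1 CPM in members and 8.63 in the others on SER12, 30.5 and 10.3 on SER13, 37.9 and 11.1 on SER25, 27.9 and 5.22 on SER39, and 23.6 and 6.11 on SER40. The lowest plate mean of the members thus lay above the highest of the others. A read was present in 42 of 57 members (73.7%) and 120 of 233 others (51.5%). Peli2 shares exon positions with the predicted gene Gm6498, and the counting ignored strand, so the reads of the pair cannot be told apart.

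Kit, the receptor tyrosine kinase for stem cell factor, had a contrast of 1.14, with plate means of 90.4 CPM in members against 50.5 in the others on SER12, 69.7 against 39.1 on SER13, 111 against 56.0 on SER25, 161 against 39.3 on SER39 and 106 against 50.6 on SER40. The plate sets did not overlap, but without SER39 the contrast was 0.92, below the threshold. March1, which encodes a membrane-bound ubiquitin ligase, stood at 1.24 (0.34 to 1.72) and at 1.22 without SER39, and its exons overlap those of Gm15354. The SER39 member with 4070 genes held 223 CPM of Slc10a3, a gene that shares exon positions with Ubl4a, whose contrast fell from 1.33 to 0.74 without SER39. Rerg, a Ras-like growth inhibitor gene (1.22), and Hs3st4, a heparan sulfate sulfotransferase gene that overlaps Gm27040 (1.13), were also under the threshold without SER39, at 0.89 and 0.87.

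Genes called lower covered guidance cues, receptors and transcription factors. Tpbg, which encodes a Wnt-regulating membrane glycoprotein (chromosome 9, 85842380 to 85847040, overlapping 9330154J02Rik), had the lowest contrast of the well-expressed genes, -4.25 (-4.02 without SER39), with a read in 3 of 57 members and 60 of 233 others. Slit2, the axon repellent that binds Robo receptors (chromosome 5, 47983138 to 48307733), had plate means of 7.84 CPM in members against 22.2 in the others on SER12, 0.0691 against 19.9 on SER13, 6.29 against 44.8 on SER25, 0 against 27.6 on SER39 and 1.84 against 24.8 on SER40. It was read in 10 of 57 members (17.5%) and 137 of 233 others (58.8%), a contrast of -3.27. Htr5b, a serotonin receptor gene (chromosome 1, 121509842 to 121528465), had plate means of 18.4 and 41.7 CPM on SER12, 2.90 and 20.5 on SER13, 18.0 and 45.2 on SER25, 0 and 30.3 on SER39, and 0 and 27.8 on SER40, a contrast of -2.94. Every plate mean of the members was below every plate mean of the others for Tpbg, Slit2 and Htr5b.

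The next genes of the same group included Pcdh11x, a protocadherin gene (-2.79), Rgs10, a regulator of G-protein signalling (-2.62), Lypd1, a modulator of nicotinic receptors whose exons overlap Gpr39 (-2.44), Gabrg3, the gamma3 subunit gene of GABA-A receptors (-2.38), Mgll, which encodes the lipase that degrades the endocannabinoid 2-AG and overlaps Gm26588 (-2.28), Klhl1, an actin-binding protein gene (-2.26), Wnt5a, a Wnt ligand gene overlapping Gm2670 (-2.26), and Cacng5, which encodes a modulator of AMPA receptors (-2.06). On SER39 all 8 were at 0 in the 3 members. Without that plate all remained at or beyond the threshold, with Cacng5 at -1.04 the nearest to it.

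Classes of cells within the pDR differed in these genes. Slit2 averaged 3.21 CPM in the members, 6.57 in Gad Trh cells, 23.7 in Gad cells with Slc17a8, 54.1 in Slc17a8 cells without Gad and 15.7 in cells with neither. Htr5b followed the same order over the first 4 classes, at 7.85, 22.0, 33.7 and 56.1 CPM, and stood at 0.501 CPM in cells with neither. Tpbg averaged 1.41, 0.211, 41.7, 60.5 and 21.5 CPM in the order given for Slit2, and Cacng5 8.96, 1.11, 12.9, 78.1 and 45.1. Tpbg and Cacng5 were thus lowest in Gad Trh cells and not in the members. Pcdh11x, Rgs10, Lypd1, Klhl1 and Wnt5a were, like Slit2, lowest in the members. Peli2 averaged 28.4 CPM in members, 12.1 in Gad Trh cells and 3.09 in Slc17a8 cells without Gad. Kit averaged 108 CPM in members, 68.4 in Gad Trh cells, 77.0 in Gad cells with Slc17a8, 29.5 in Slc17a8 cells without Gad and 12.1 in cells with neither. Against Gad Trh cells Kit was not called (0.63), and it was read in 45 of 57 members and 84 of 89 Gad Trh cells.

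The lists of genes by function gave the following counts in the comparison with all other pDR cells. Of 13 genes associated with the ventral pDR, 5 were lower and 0 higher, namely Npas1 (-2.37) and Esr2 (-1.68), both transcription factor genes, Syt2, a synaptotagmin gene (-2.24), Crhr2, the second receptor gene for corticotropin-releasing hormone (-2.02), and Npy2r, a neuropeptide Y receptor gene (-1.95). The median of that list was -0.71, and without SER39 it was -0.28 with 4 genes lower. Of 10 genes associated with the dorsal pDR, 1 was higher, Sox14, and the median was -0.13. Both lists hold genes that the study picked from these same cells and are no independent evidence. Sox14, a transcription factor gene of inhibitory midbrain neurons, had plate means of 12.6 against 5.72 CPM on SER12, 17.8 against 8.41 on SER13, 5.51 against 3.76 on SER25, 10.8 against 2.82 on SER39 and 15.1 against 3.07 on SER40, and was read in 33 of 57 members (57.9%) and 66 of 233 others (28.3%). The sets overlapped between plates, but members were higher within each.

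Of 37 transcription factor genes, Sox14 was higher and 6 were lower. Nr2f2, the orphan receptor COUP-TFII, was read in 1 of 57 members and 57 of 233 others (-3.64), and its plate means in the others ran from 10.0 to 15.3 CPM. The other lower factors were Rorb (-2.44), Npas1, Esr2, Id2 (-1.60) and Foxp1 (-1.16). Of 10 neuropeptide genes 2 were lower, Adcyap1 (PACAP, -3.30, read in 2 of 57 members and 26 of 233 others) and Gal (galanin, -1.71). That list also holds the granule protein genes Chga, Chgb and Scg2. Of 12 peptide receptor genes 4 were lower, namely Prokr2 for prokineticins (-2.25), Crhr2, Npy2r and the oxytocin receptor gene Oxtr (-1.80). Htr5b was the 1 lower gene of 13 amine receptors, and the nicotinic subunit gene Chrna4 (-2.27) the 1 lower gene of 3 acetylcholine receptors. Among 18 GABA and glycine receptor genes Gabrg3 and Gabrg1 (-1.12, and -0.76 without SER39) were lower. Of 16 glutamate receptor genes the NMDA subunit gene Grin2a (-1.89, but -0.996 and not called without SER39) and Grm7 (-1.84) were lower, and of 4 glutamate-handling genes the transporter gene Slc1a1 (-1.91).

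The larger families held genes called lower too, beside 2.14% lower over all 9993 genes tested (1.37% without SER39). Potassium channel genes had 3 lower of 39 (Kcnk2, Kcnab1 and Kcnq3, -1.22 to -1.15) and sodium, calcium, HCN and TRP channel genes 3 lower of 34 (Cacng5, Cacna2d3 at -1.94 and Cacng4 at -1.30). Adhesion and guidance genes had 10 lower of 91, among them Slit2, Ntng1, Pcdh15, Nrxn3, Plxna4 and Epha5, but without SER39 there were 2 lower, Slit2 and Pcdh15. Without that plate Kcnq3 was no longer called (-0.71) and the potassium channel gene Kcng4 was called higher. None of 5 neurofilament, 15 calcium-binding or 8 immediate early genes was called in either direction.

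**Figure D2:**
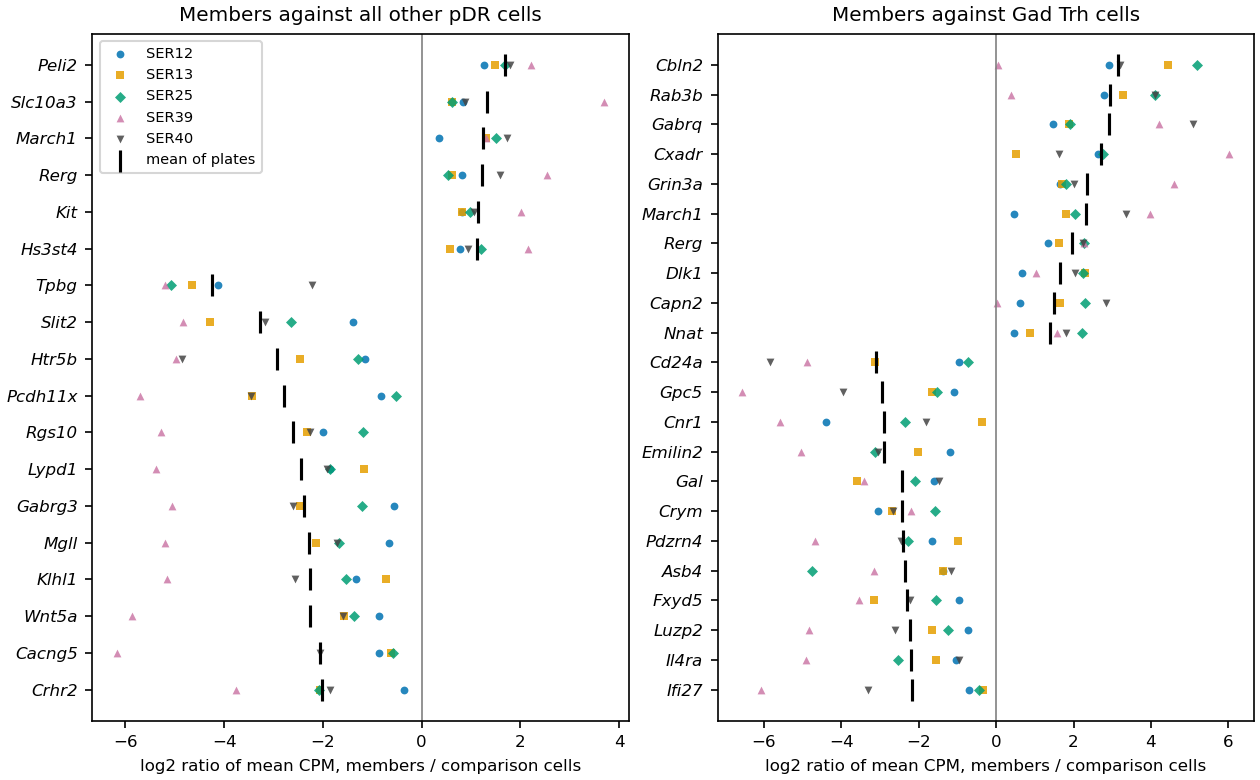
Contrasts of the named genes on each plate (coloured points) and their mean over plates (black bar), as the log2 ratio of mean CPM plus 1, for the 57 members against all other pDR cells and against Gad Trh cells. The points of SER39 lie farthest out for several genes, such as Cacng5 at -6.18 and Grin3a at 4.60, while those of Peli2 stay between 1.26 and 2.22.

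Against Gad Trh cells, the nearest set by the gate, the members had higher levels of a group of receptor subunits and synaptic genes. Of 10002 genes tested 57 were called higher (0.57%) and 186 lower (1.86%), and without SER39 100 and 162, of which 43 and 109 were among the first calls. The members are the same 57 cells as above, and the Gad Trh cells were part of the first comparison set. Gad1 was read in 62 of the 89 Gad Trh cells (69.7%) and in 23 of 57 members (40.4%). The sets thus differed in Gad1 as well as in Trh, and the part of Gad1 in these contrasts was not tested. Gad Trh cells had no limit on Slc17a8, which was read in 13 of the 89, at up to 111 CPM. With Slc17a8 under 10 CPM in both sets 57 genes were called higher and 175 lower, of which 47 and 153 were among the first calls.

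Cbln2, which encodes a secreted organiser of synapses, had the highest contrast, 3.16. Its plate means were 77.0 CPM in members against 9.40 in Gad Trh cells on SER12, 63.5 against 1.97 on SER13, 35.5 against 0 on SER25, 7.21 against 6.88 on SER39 and 49.1 against 4.40 on SER40. The members were clearly higher on 4 plates and nearly equal on SER39, without which the contrast was 3.94. A read was found in 38 of 57 members (66.7%, interval 52.9 to 78.6%) and 10 of 89 Gad Trh cells (11.2%, 5.52 to 19.7%). Against all other pDR cells Cbln2 was instead called lower in the members, at -1.14, with members lower on 5 of 5 plates, and at -0.74 without SER39. Rab3b, a small GTPase gene of synaptic vesicles (chromosome 4, 108879063 to 108943324, with exon overlap with 8030443G20Rik), had plate means of 30.8 against 3.61 CPM on SER12, 49.5 against 4.198 on SER13, 35.7 against 1.15 on SER25, 2.64 against 1.78 on SER39 and 24.8 against 0.489 on SER40. Its contrast was 2.93, or 3.57 without SER39, and as for Cbln2 the groups were apart on every plate but SER39.

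Genes higher in the members included Gabrq and Gabre among 18 GABA and glycine receptor genes and Grin3a and Gria1 among 16 glutamate receptor genes, and 0 genes of either list were lower. Gabrq, the theta subunit gene of GABA-A receptors (chromosome X, 72825178 to 72842602), had plate means of 46.7 against 16.3 CPM on SER12, 38.3 against 9.59 on SER13, 33.4 against 8.11 on SER25, 38.3 against 1.14 on SER39 and 40.9 against 0.236 on SER40, with no overlap between the sets and a contrast of 2.91. Gabre, the epsilon subunit gene (chromosome X, 72255999 to 72274803), had lower levels, 0.860 to 27.4 CPM over plates in members and 0 to 1.499 CPM in Gad Trh cells, with a contrast of 2.22. Gabrq and Gabre lie near each other on the X chromosome.

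Grin3a, which encodes a modulatory NMDA receptor subunit (chromosome 4, 49661611 to 49845744), had plate means of 23.8 against 6.94 CPM on SER12, 24.3 against 6.83 on SER13, 33.5 against 8.92 on SER25, 23.3 against 0 on SER39 and 5.15 against 0.537 on SER40, a contrast of 2.35 (1.78 without SER39). Members were above Gad Trh cells on each plate, although the members of SER40 stood below the Gad Trh cells of 3 other plates. Gria1, an AMPA receptor subunit gene, was at 1.01.

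Other genes called higher were March1 (2.33), Rerg (1.95, with plates between 1.34 and 2.27) and a pair of imprinted genes. Dlk1, a non-canonical Notch ligand gene, averaged 132 against 82.9 CPM on SER12, 208 against 41.9 on SER13, 193 against 40.0 on SER25, 49.7 against 24.0 on SER39 and 175 against 42.1 on SER40 (1.65). Nnat, which encodes the small membrane protein neuronatin and overlaps Gm23134, had a contrast of 1.39. Capn2, a calcium-dependent protease gene overlapping Gm37885, stood at 1.49, but at 0.03 on SER39. The adhesion gene Cxadr, whose exons overlap Btg3, stood at 2.72, of which much came from the SER39 member with 4070 genes (312 CPM). With the highest cell of each set dropped it was 0.62, and with cells under 7000 genes left out it was 0.63. Of 88 adhesion and guidance genes 4 were higher (Cbln2, Pcdh19 at 2.07, Epha7 at 1.61 and Nlgn1 at 1.19) and 4 lower (Pcdh8, Cntnap3, Plxnc1 and Unc5a). Without SER39 6 were higher and 3 lower, with Nlgn1, Pcdh8 and Unc5a not among them.

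Genes lower than in Gad Trh cells included Asb4, an imprinted gene for a component of ubiquitin ligases (chromosome 6, 5383386 to 5433022). Its plate means were 154 CPM in members against 399 in Gad Trh cells on SER12, 213 against 553 on SER13, 12.6 against 365 on SER25, 45.4 against 409 on SER39 and 190 against 428 on SER40. The sets did not overlap, and a read was present in 33 of 57 members (57.9%) against 82 of 89 Gad Trh cells (92.1%), with a contrast of -2.36. Gal, the galanin gene (chromosome 19, 3409915 to 3414544), had plate means of 9.65 against 31.3 CPM, 0.796 against 20.8, 9.79 against 45.1, 3.68 against 48.6 and 7.50 against 22.5, a contrast of -2.43, and was read in 13 of 57 members and 52 of 89 Gad Trh cells. Crym, which encodes a thyroid hormone binding protein (chromosome 7, 120186380 to 120202111), was read in 16 of 57 and 52 of 89, at -2.43. All plate means of the members were below all of the Gad Trh cells for Gal and Crym.

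The remaining lower genes by rank were Cd24a, a cell surface glycoprotein gene (-3.11), Gpc5, a glypican gene overlapping Gm20713 that was read in 11 of 57 members and 65 of 89 Gad Trh cells (-2.95), Cnr1, the CB1 cannabinoid receptor gene (-2.90), Emilin2, an extracellular matrix gene (-2.88), Pdzrn4 (-2.41), Fxyd5, a sodium pump regulator gene overlapping Mir7050 (-2.29), Luzp2 (-2.22), Il4ra, an interleukin receptor gene overlapping Gm44876 (-2.20), and the interferon-inducible gene Ifi27 (-2.17). On SER39 the 3 members had 0 CPM of each of these 9. Without that plate they ranged from -2.67 for Cd24a to -1.19 for Ifi27.

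Of 11 genes associated with the dorsal pDR 5 were lower than in Gad Trh cells and 0 higher. They were Asb4, the receptor tyrosine kinase gene Ret (-1.41), Adamtsl2, an extracellular matrix gene (-1.27), the intermediate filament gene Prph (-1.18) and the transcription factor gene Pax5 (-1.10), and the list median was -1.10 against -0.07 over all genes. The same 5 were lower without SER39, and Crh was then called higher. Sox14 was not called (0.59, plates from -1.19 to 2.67) and Crh, the corticotropin-releasing hormone gene, had 1.17 with both signs among the plates, and 1.57 without SER39, the plate on which it was negative. Of 11 ventral genes 1 was lower, Esr2, at -1.55 and at -0.92 without SER39. Among 35 transcription factor genes 6 were lower, among them Id2, Esr2, Zfp536, Pax5 and Rora, and 0 higher, and without SER39 4 were lower, with Esr2, Zfp536 and Rora not among them, and 1 higher, Esr1.

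Beside 0.57% higher and 1.86% lower over all genes tested, some other lists held calls in this comparison. They gave Nmb (-1.49) beside Gal among 11 neuropeptides, Prokr2 (-2.68) among 11 peptide receptors, the adrenergic receptor gene Adra1a (-1.81) among 13 amine receptors, the muscarinic receptor gene Chrm1 (-1.52) among 3 acetylcholine receptors and Prph among 5 neurofilament genes. None of 36 potassium channel genes, 36 sodium, calcium, HCN and TRP channel genes, 15 calcium-binding genes, 9 immediate early genes, 4 glutamate-handling genes and 3 oligodendrocyte genes was called in either direction. Some of these counts rested on SER39. Without it 4 potassium channel genes (Kcnc2, Kcnc4, Kcng4 and Kcnip1), Cacng5, Calb2 and the immediate early gene Fos were called higher, and Arc and the adrenergic receptor gene Adra2a lower.

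Cbln2, Gabrq and Rab3b were present in other classes of pDR cells too. Cbln2 averaged 46.5 CPM in members, 4.53 in Gad Trh cells, 105 in Gad cells with Slc17a8, 147 in Slc17a8 cells without Gad and 108 in cells with neither. Gabrq averaged 39.5, 7.07, 47.7, 38.5 and 136 CPM in the same order and Rab3b 28.7, 2.25, 14.3, 23.9 and 40.3. Gabre averaged 9.50, 0.642, 10.0, 8.24 and 48.4 CPM in that order. Gria1 averaged 28.7, 13.0, 20.5, 24.3 and 46.6 CPM, and Grin3a 22.0, 4.65, 20.8, 5.30 and 23.4. In each of these genes the Gad Trh cells were the lowest class. The members lay below the other 3 classes in Cbln2, and among them in the rest. Asb4 averaged 123 CPM in members, 431 in Gad Trh cells, 113 in Gad cells with Slc17a8 and 7.41 in Slc17a8 cells without Gad.

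Members differed among themselves. The standard deviation of log2(CPM + 1) within plates was largest for Asb4 (3.68), which ran from 0 to 1661 CPM, followed by Calcr, the calcitonin receptor gene (3.36), Nbl1, a BMP antagonist gene (3.33), Nell1 (3.32), Dlk1 (3.26) and Arhgap36 (3.12), among genes that passed the filters. Several neuropeptide genes were each read in a part of the members, while Chga, Chgb and Scg2 of that list were read in 100%. Pdyn, the prodynorphin gene, was read in 28 of 57, Crh and Gal in 13 each, Penk, the proenkephalin gene, in 6 (and in 1 of 89 Gad Trh cells), Sst in 3 and Adcyap1 in 2. Tac1 was read in 0 of 57, which allows a share of up to 5.26%.

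Since Gad1 was either absent or above 66 CPM, the 23 members with Gad1 were set against the 34 with Gad2 alone. On SER12 and SER13 both sets had at least 3 cells, and the comparison used those plates, with 19 and 14 cells. Of 10097 genes tested 364 were called higher (3.61%) and 467 lower (4.63%) in the members with Gad1, shares that are larger than in the other comparisons, with only 2 plates on which the sign had to be the same. With means of log2(CPM + 1) the counts were 258 and 740.

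Of 11 genes of the dorsal list, 6 were called higher in the members with Gad1, 1 was called lower and 4 were not called, with a median of 1.44. The study found the dorsal markers Pax5 and Sox14 to correlate with Gad1 over these same cells. The counts are thus no independent evidence. Asb4 had plate means of 323 CPM with Gad1 against 13.9 with Gad2 alone on SER12 and 288 against 83.0 on SER13 (3.11), and, over all plates, a read in 17 of 23 and 16 of 34 cells. Pax5 had 33.5 against 3.46 CPM on SER12 and 19.1 against 9.84 on SER13 (1.92) and was read in 23 of 23 and 24 of 34. Adamtsl2 (2.33), Ret (1.44) and the transcription factor genes Bcl11a (2.02) and Nfix (2.596) made up the 6. Bcl11a was highest, at 216 CPM, in a SER12 member with 6537 genes, and its contrast ran from 0.89 to 3.02 under other settings. Crh was the lower one, with 0 against 39.4 CPM on SER12 and 5.09 against 13.6 on SER13 (-3.30), and a read in 4 of 23 and 9 of 34. Of 12 ventral genes 1 was higher and 3 lower, with a median of -0.77.

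Some receptor genes were lower in the members with Gad1. Of 17 GABA and glycine receptor genes 0 were called higher and 4 lower (list median -0.49), and of 16 glutamate receptor genes 0 were higher and 2 lower (-0.25). Gabrq had plate means of 5.38 CPM with Gad1 against 81.2 with Gad2 alone on SER12 and 25.7 against 60.5 on SER13 (-2.45). Gabre stood at -1.92 and Grm7 at -2.25. Gabrq and Gabre, which were higher in all members than in Gad Trh cells, were thus lower in the members with Gad1 than in those with Gad2 alone. Sema5a, a semaphorin gene, had the lowest contrast of the well-expressed genes, -3.53, with 0.206 against 45.3 CPM on SER12 and 12.6 against 46.3 on SER13. The histamine receptor gene Hrh1 (-1.68) and the calcium-binding protein gene Calb2 (-3.20) were lower too.

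Beside Asb4, the genes with high contrasts in members with Gad1 were Emilin2 (3.77, with 39.5 against 1.63 CPM on SER12 and 11.1 against 0 on SER13), the imprinted gene Mkrn3 (3.01), Ifi27 (2.93), the chloride channel gene Clic1 (2.53), Cryl1 (2.46), the phosphodiesterase gene Pde8b (2.30), the phospholipase gene Pla2g7 (2.18), Lims1 (2.12) and Pcp4l1 (2.08). Asb4, Emilin2, Ifi27, Pax5, Ret and Adamtsl2, higher here in the members with Gad1, were each lower in all members than in Gad Trh cells, with the contrasts given above. Pde8b was highest, at 161 CPM, in a SER12 member with 6537 genes, and its contrast ran from 0.70 to 2.59 under other settings. Pax5, Grm7, Bcl11a, Pla2g7 and Pde8b share exon positions with another gene. Among transcription factor genes 7 of 36 were higher and 3 lower. The somatostatin gene Sst was read in 3 of 23 members with Gad1 and in 0 of 34 with Gad2 alone, which allows up to 8.82%, and 1 cell of 588 CPM held 77.9% of it. None of 16 serotonin and 6 GABA-handling genes was called.

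Counted per cell, the members carried at least 5 CPM of a median of 5 of the 12 dorsal genes (0 to 9), against 7 in Gad Trh cells and 2 in Slc17a8 cells without Gad. Members with Gad1 had a median of 6 and those with Gad2 alone 4, for which the dorsal list is again no independent evidence. Of the 15 ventral genes the members had a median of 5 (0 to 11), with 4 and 5 in the respective parts, and Slc17a8 cells without Gad had 7.

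**Figure D3:**
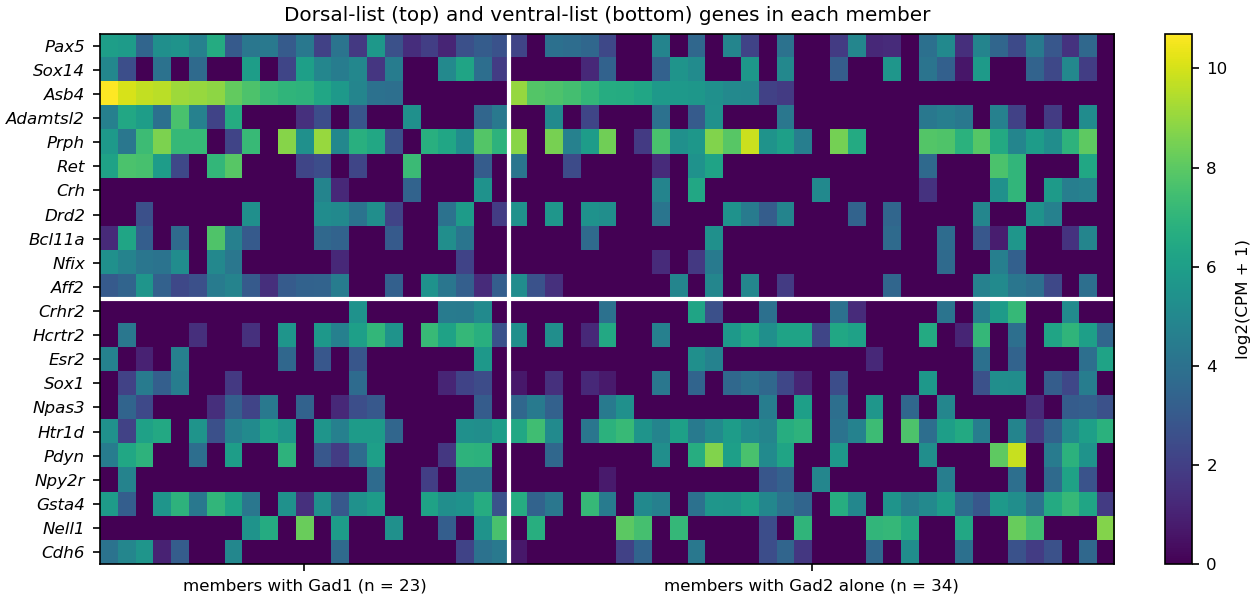
Level of the genes of the dorsal list (top) and the ventral list (bottom) with a read in at least 20% of members, in each of the 57 members, as log2(CPM + 1) by colour, with the 23 members with Gad1 left of the white line and the 34 with Gad2 alone right of it, both ordered by Asb4. Pax5 has a read in 23 of 23 columns on the left and 24 of 34 on the right, and no gene shown fills one side and leaves the other empty.

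The likeness of members to each other was measured over the transcriptome with the 4 gate genes left out. For each member the 15 nearest cells of its plate were found in 20 principal components, and the share of members among them was set against the share expected from the other cells of the plate. On average over plates 24.6% of the neighbours were members and 17.9% were expected. The observed and expected shares were 12.7 and 10.9% on SER12, 47.6 and 25.0% on SER13, 21.3 and 21.4% on SER25, 4.44 and 7.41% on SER39 and 37.0 and 25.0% on SER40. Members were thus over their expected share on SER13 and SER40, slightly so on SER12, and not on SER25 and SER39. Slc17a8 cells without Gad were below their expected share on all 5 plates, at 18.4% of the neighbours with 29.5% expected. The classes were cut by the gate genes, so these shares describe how the rule divides the cells.

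The neighbours of members with and without Gad1 were counted apart. Gad Trh cells were 46.2% of the neighbours of members with Gad1, with 34.3% expected on the 2 plates with enough of them. This came from SER12, where the shares were 65.3 and 41.3%, while on SER13 they were 27.1 and 27.4%. Among the neighbours of members with Gad2 alone, Gad Trh cells were 22.3% with 28.2% expected, below the expected share on 4 of 4 plates. Slc17a8 cells without Gad were 2.86% of the neighbours of members with Gad1 (24.9% expected) and 21.4% of those of members with Gad2 alone (29.5% expected). On the plates that held both, the shares were 0 and 18.9% on SER12 and 5.71 and 8.33% on SER13, so that they were well apart on SER12 only, and the mean for Gad2 alone included 38.5% on SER25.

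**Figure D4:**
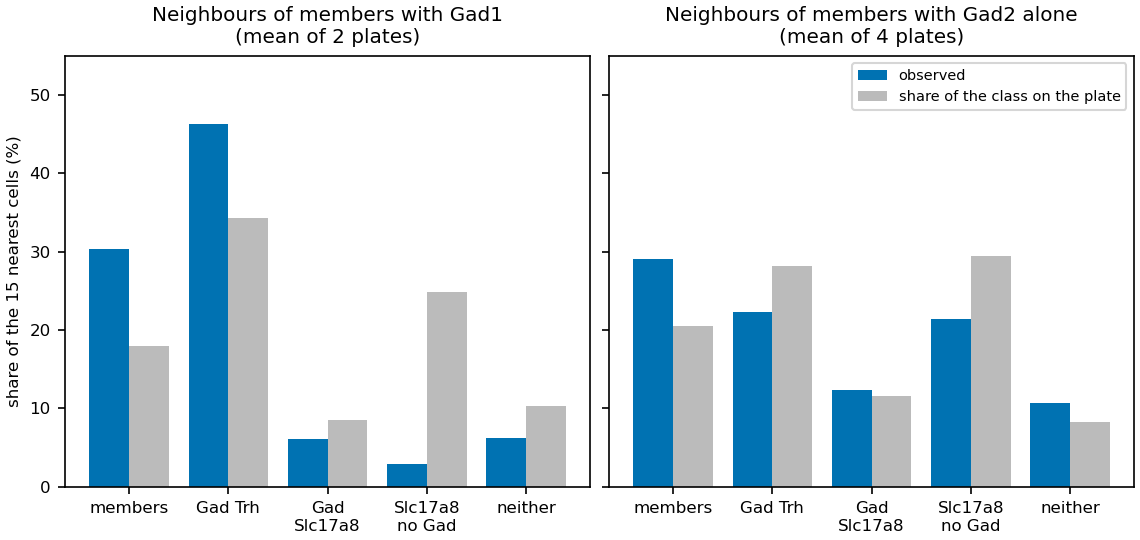
Share of each class of cells among the 15 nearest cells of the same plate (blue bars, in %) and the share of that class on the plate (grey bars), averaged over plates, for members with Gad1 (left, 2 plates) and members with Gad2 alone (right, 4 plates). Slc17a8 cells without Gad are nearly missing around members with Gad1 (2.86%) and Gad Trh cells are below their share around members with Gad2 alone (22.3 against 28.2%).

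The same rule was applied to the All DR dissection, whose cells had no part in the choice of the pDR members. It found 66 cells of 709, beside 28 Gad Trh cells, and 7 plates with at least 3 of each held 43 and 26 of them. All 12 named genes higher in the pDR members than in Gad Trh cells had a contrast above 0 there (median 2.46), and 10 of the 12 named lower genes had one below 0 (median -1.50). Cbln2 stood at 5.99 and was higher on 7 of 7 plates, Gabrq at 5.47, Rab3b at 5.24, March1 and Capn2 at 2.89 and Nnat at 1.43. Grin3a (1.08) and Rerg (0.90) had smaller contrasts than in the pDR, with Rerg higher on 4 of 7 plates. Over all 66 and 28 cells, reads were less frequent than in Gad Trh cells for Rerg (43.9 against 60.7%), Dlk1 (31.8 against 42.9%) and Nnat (97.0 against 100%). They were more frequent for the rest of the higher genes, by little for Grin3a (28.8 against 28.6%). Crym (-3.63) and Gpc5 (-2.52) were lower on 7 of 7 plates, and Asb4 stood at -2.55 and Gal at -1.79. The exceptions were Cnr1 (2.57) and Emilin2 (0.55), which lay above 0. Luzp2 (-0.01), Ifi27 (-0.28) and Pdzrn4 (-0.30) were below 0 by little. Of all genes called higher in the pDR, 42 of 46 tested in All DR lay above 0 (91.3%, against 52.2% of 9520 genes), and of those called lower 108 of 157 lay below 0 (68.8%, against 47.8%).

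The cells found by the rule in All DR were not the same mixture as in the pDR. Gad1 was read in 10 of 66 of them against 23 of 57 pDR members, and Sox14 in 11 of 66 against 33 of 57. Irx2, a homeobox gene, was read in 22 of 66 against 1 of 57, Piezo2, a mechanosensitive channel gene, in 12 against 2, Zeb2, a transcription factor gene, in 10 against 1, Met, the receptor gene for hepatocyte growth factor, in 9 against 0 (which allows up to 5.26%), and Tacr3, a tachykinin receptor gene, in 13 against 1. These genes were looked at as marks of cells from outside the pDR, and the cells of All DR cannot be told apart by region from their labels.

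**Figure D5:**
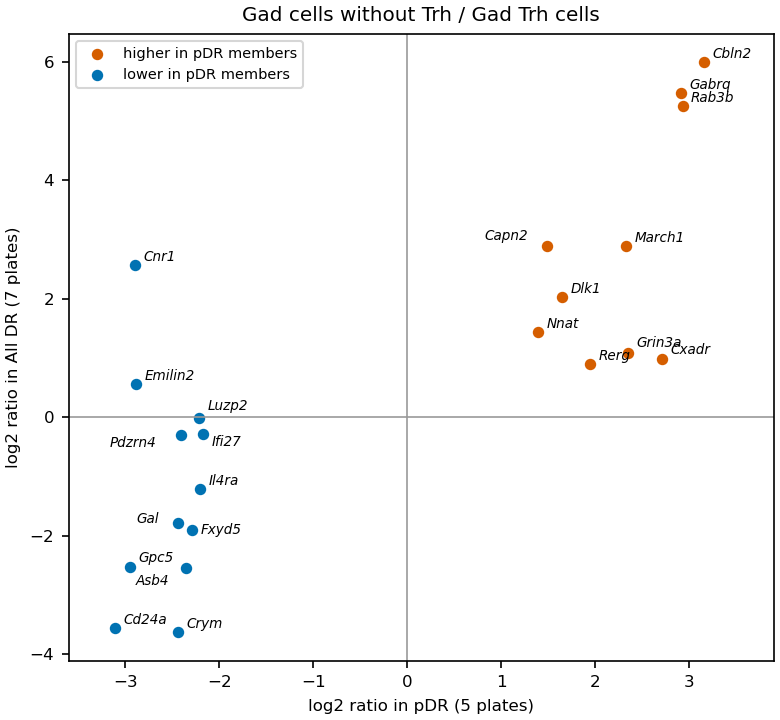
Contrast of Gad cells without Trh against Gad Trh cells for the named genes, in the pDR (x axis, 5 plates) and in All DR (y axis, 7 plates), both as log2 ratios of mean CPM plus 1, with 1 point per gene. The genes shown that were higher in the pDR all lie above 0 on the y axis, and Cnr1 and Emilin2 are the 2 genes lower in the pDR that do as well.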

How the data were processed

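Libraries of single tdTomato-positive cells were demultiplexed (bcl2fastq 2.19.0.316), aligned to mm10 (GRCm38) with STAR 2.6.1a and counted on genes with HTSeq 0.11.2 without regard to strand, per the submitters' processing notes and the study's methods. The authors left out Y-linked genes and deposited the values as CPM, reads scaled to the same total of reads on genes in each cell. Values were whole multiples, within 0.001, of 1 read for 100% of values above 0, so reads could be recovered. The table holds 53263 genes and 999 cells, and the column of each cell was matched to its label. Of 480 cells labelled Principal DR, 190 had no column in that table and could not be analysed. All cells passed the minimums of 50000 reads and 300 genes, and no doublet caller was run.

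The members, the comparisons and the 25 gene lists were chosen with earlier results of these data known. Genes were tested with a mean of at least 5 CPM in 1 set and a read in at least 10% of its cells. Means were compared within plates holding at least 3 cells of each set, with a pseudocount of 1 CPM. Gate genes were left out. A gene was called at a log2 contrast of at least 1 with 1 sign on all plates, of which at least 2 were needed. The text names the 12 highest and 12 lowest called genes with a mean of at least 20 CPM and a read in 25% of cells in the higher set, and up to 6 genes per list with its defining members. Further genes called in a list, and Penk, Adcyap1, Tac1 and the marks of All DR cells, were named after their values were seen. Results of some genes that the rule picks are not reported here. No count test was run, since 1 sample per dissection leaves no replicates. The table gave no total besides reads on genes, and more reads per cell narrow only counting error. Alternatives were other pseudocounts (0.1 and 10 CPM), pooled means, means of logs, TMM factors, thinning to 200000 reads, other filters and gates, and leaving out plates.

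Neighbours were found on ln(CPM+1) centred within plates. Coordinates and exon overlaps are from GENCODE M21. The steps were tested on simulated data. Python 3.11.15 with NumPy 2.4.6, SciPy 1.17.1, pandas 2.3.3 and matplotlib 3.10.9, and R 4.3.3 with edgeR 4.0.16 (TMM factors), were used.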

Additional observations from a re-analysis of the deposited data

Results flagged for a closer look

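In 9 of 69 sets of plate values tested, 1 plate stood apart from the others by Dixon's criterion, which chance gives in about 1 in 20 sets. The plate was SER39, with 3 members, in 7 of the 9. Against all other pDR cells its contrast was 3.70 for Slc10a3 (other plates 0.61 to 0.87), 2.00 for Kit (0.82 to 1.06), -5.28 for Rgs10 (-2.33 to -1.20), -5.39 for Lypd1 (-1.92 to -1.18), -5.87 for Wnt5a (-1.60 to -0.86) and -6.18 for Cacng5 (-2.06 to -0.58). Against Gad Trh cells it was 4.60 for Grin3a (1.64 to 2.00). In All DR, plate SER64 had a contrast of 0.55 for Cbln2 (6.24 to 7.74 on the others), and plate SER60 had -8.71 for Asb4 (-2.81 to 0.13). In each of these sets but that of Asb4 all plates had the same sign.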

How the results depend on the processing

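No paired analysis was possible because the labels name no animals and number the cells only. The share of members was 18.3 to 22.1% under other gates or thinning and 17.1 to 23.4% with a plate left out. The excess of members among neighbours was 6.67 percentage points, 3.67 to 11.5 under other settings and 2.69 to 9.08 with a plate left out (30 neighbours could be counted on 4 plates). In All DR 22 of 24 named genes had the sign of the pDR with pooled means as well. Counts of called genes moved more. Against all other pDR cells 26 higher and 214 lower genes became 3 and 27 with a pseudocount of 10 CPM, and 4 and 862 with the highest cell of each set dropped, which moved the median of all genes from -0.10 to -0.41. Lower genes were 89 with pooled means, 129 with means of logs, 326 with a filter of 1 CPM, 113 without cells under 7000 genes and 137 with Gad of at least 10 CPM. The last 2 settings left too few members on SER39 for that plate to be used. Against cells without a Gad read 126 were higher. Leaving out a plate gave 34 to 61 higher and 136 to 330 lower. Against Gad Trh cells 57 higher and 186 lower genes became 14 and 24 with the pseudocount of 10 CPM, and 21 and 414 with the highest cells dropped (median -0.24). Lower genes were 104 with pooled means, and higher genes 109 without cells under 7000 genes, 101 with Gad of at least 10 CPM and 116 with thinned cells and no SER39. Leaving out a plate gave 81 to 100 higher and 162 to 320 lower. Between members with Gad1 and with Gad2 alone, 364 higher and 467 lower became 41 and 31 with the pseudocount of 10 CPM, 648 and 810 with the filter of 1 CPM, and lower genes 291 with pooled means and 740 with means of logs. No plate could be left out there.

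The share of higher calls among all calls was 10.8% against all other pDR cells, and 20.5% with pooled means, 23.2% with means of logs, 0.462% with the highest cells dropped and 35.0% against cells without a Gad read. Against Gad Trh cells it was 23.5%, and 36.8% with the pseudocount of 10 CPM, 4.83% with the highest cells dropped, 38.2% without SER39, 42.9% without cells under 7000 genes and 38.0% with Gad of at least 10 CPM. Between the parts of the members it was 43.8%, 56.9% with the pseudocount of 10 CPM and 25.9% with means of logs. The cause of the other moves was not tested. TMM factors gave 19 and 170, 50 and 145, and 367 and 422 calls in the 3 comparisons. No named gene reversed. Of 304, 408 and 216 values of named genes under the alternatives, 33, 15 and 6 fell below the threshold. Leaving out cells under 7000 genes, and thinning without SER39, were chosen after seeing the data. The counts rest on few cells per plate, and genes near 5 CPM are limited by depth.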
